A study of Mus musculus with 6 samples.

Results

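The mitochondrial ribosomal proteins, encoded in the nucleus by the Mrpl (large subunit) and Mrps (small subunit) genes, were compared between SB28 libraries labelled PP2Ac knockout and wild type. Members were the rows of the count table whose symbol is Mrpl or Mrps followed by a digit, leaving out 5 symbols ending in -ps, which name pseudogenes. The rule gave 78 of 55453 symbols, 49 of the large and 29 of the small subunit. SB28 is a mouse glioma line of C57BL/6 strain, and PP2Ac is the catalytic subunit of protein phosphatase 2A, encoded mainly by Ppp2ca. There were 3 libraries labelled PP2A KO and 3 labelled Wild Type, all of poly(A) RNA, with no other treatment, time or allele in the sample labels. The design text of the series instead describes SB28 tumours, placed under the skin or in the brain of wild-type hosts or of hosts with floxed PP2Ac and a LysM-driven Cre, which acts in myeloid cells. Which cells carried the deletion and how it was made cannot be read from the labels, nor whether each replicate had its own culture, so p-values may measure only technical spread.

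The mitoribosome sits in the mitochondrial matrix and makes the few proteins that mitochondrial DNA encodes, all of them subunits of the respiratory chain or ATP synthase. Its rRNAs are transcribed in the mitochondrion, whereas its proteins are made in the cytosol and imported, so the particle depends on both genomes. Compared with bacterial ribosomes it has less rRNA and many added proteins. Gliomas, like other tumours, differ widely in how much they rely on respiration. Of the factors that bind promoters of nuclear genes for mitochondrial proteins, NRF1, the ETS-family factor GABP and YY1 are the best known.

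Library totals ran from 38735864 to 49344079 counts. The number 1 libraries stood apart within both groups: counted over genes reaching 20 in the summed pair, chi-square per degree of freedom was 29.71 to 48.41 for pairs with a number 1 library, against 4.61 and 3.41 for the remaining wild-type and knockout pairs. Ppp2ca read 274, 244 and 247 CPM (counts per 1000000 mapped to genes) in wild type and 217, 187 and 193 in knockout, and fell by 0.36 on the log2 scale (SE 0.08, edgeR adjusted p = 0.00377), with 41.3% of its exon bases opposite other genes. Of 8 glioma and neural markers, 6 were tested, and their summed level was 6071 to 6238 CPM in wild type and 3095 to 3118 in knockout, with Olig2 at 0. Most of that sum was Vim, at 4791 and 1882 CPM. Vim, Nes and Sox2 fell, Pdgfra and Pdgfrb rose, and Cd44 did not pass the test. The 10 myeloid markers summed to 3.29 to 3.63 CPM in wild type and 4.84 to 5.42 in knockout, with Adgre1 and Tyrobp at 0. Endothelial markers summed to 397 to 430 and 419 to 456 CPM, nearly all from Cdh5, with Cldn5 at 0. Erythroid, B cell and T and NK cell markers each summed to at most 0.128 CPM in any library, and neuron and oligodendrocyte markers to 2.33 to 2.90 CPM in wild type and 1.56 to 1.82 in knockout. The part of these markers in the results on mitoribosomal genes was not tested. In bulk libraries fewer cells of a type and less RNA per cell cannot be told apart.

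The promoters of the 6 members below are shown because they belong to the member that fell the most in the small subunit (Mrps6), to 2 of those that fell the most in the large subunit (Mrpl36 and Mrpl18), and to 3 that rose (Mrps30, Mrps18b and Mrps27). They were chosen after their values were seen. Each runs from 250 bases before to 50 bases after the RefSeq start, on the strand of the gene, in build GRCm38.p6. The positions are chr16:92058086-92058385 on the plus strand for Mrps6, chr13:73330759-73331058 on the plus strand for Mrpl36, chr17:12916042-12916341 on the minus strand for Mrpl18, chr13:118387203-118387502 on the minus strand for Mrps30, chr17:35916391-35916690 on the minus strand for Mrps18b and chr13:99344536-99344835 on the plus strand for Mrps27. Capitals mark exact matches, on either strand, to the NRF1 motif GCGCATGCG, the ETS motif CCGGAAG or the YY1 motif AAGATGGCG. Mrps18b holds an NRF1 and an ETS match, Mrps27 an ETS and a YY1 match, Mrpl18 an ETS match and Mrpl36 a YY1 match. In the windows of Mrps6 and Mrps30 none of these exact letters occur.
Mrps6: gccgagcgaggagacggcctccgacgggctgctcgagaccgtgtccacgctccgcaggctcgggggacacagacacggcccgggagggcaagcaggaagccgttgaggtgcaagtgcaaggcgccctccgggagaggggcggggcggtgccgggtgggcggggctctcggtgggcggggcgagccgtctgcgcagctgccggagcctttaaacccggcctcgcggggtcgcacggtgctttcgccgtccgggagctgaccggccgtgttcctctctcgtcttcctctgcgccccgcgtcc
Mrpl36: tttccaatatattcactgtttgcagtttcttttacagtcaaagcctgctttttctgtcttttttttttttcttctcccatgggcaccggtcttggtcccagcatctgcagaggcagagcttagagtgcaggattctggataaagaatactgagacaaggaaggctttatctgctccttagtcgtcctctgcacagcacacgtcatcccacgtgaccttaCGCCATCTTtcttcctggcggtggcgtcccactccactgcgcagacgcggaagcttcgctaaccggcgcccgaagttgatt
Mrpl18: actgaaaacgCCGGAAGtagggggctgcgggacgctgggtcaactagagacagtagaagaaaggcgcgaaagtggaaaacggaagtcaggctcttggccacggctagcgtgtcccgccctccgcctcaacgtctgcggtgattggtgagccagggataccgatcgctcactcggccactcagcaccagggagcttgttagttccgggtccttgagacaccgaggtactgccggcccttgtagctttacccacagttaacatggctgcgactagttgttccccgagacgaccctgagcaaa
Mrps30: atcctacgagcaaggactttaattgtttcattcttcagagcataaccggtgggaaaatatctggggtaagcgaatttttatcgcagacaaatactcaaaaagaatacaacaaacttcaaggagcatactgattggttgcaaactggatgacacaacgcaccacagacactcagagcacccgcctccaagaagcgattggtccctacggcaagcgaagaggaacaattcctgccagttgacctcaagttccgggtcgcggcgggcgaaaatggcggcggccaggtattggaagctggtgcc
Mrps18b: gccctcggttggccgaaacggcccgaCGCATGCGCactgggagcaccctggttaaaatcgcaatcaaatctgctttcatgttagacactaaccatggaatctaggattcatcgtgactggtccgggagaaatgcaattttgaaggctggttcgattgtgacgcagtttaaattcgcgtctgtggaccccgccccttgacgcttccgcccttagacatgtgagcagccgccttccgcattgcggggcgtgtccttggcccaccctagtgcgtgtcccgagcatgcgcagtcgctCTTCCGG
Mrps27: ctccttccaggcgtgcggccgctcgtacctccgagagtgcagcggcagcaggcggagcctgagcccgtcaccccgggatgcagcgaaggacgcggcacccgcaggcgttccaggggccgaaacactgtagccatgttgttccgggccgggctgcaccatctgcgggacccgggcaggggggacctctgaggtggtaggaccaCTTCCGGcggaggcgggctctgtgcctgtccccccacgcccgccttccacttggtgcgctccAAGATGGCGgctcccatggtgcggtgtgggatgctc

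Of the 77 tested mitoribosomal genes 39 passed the test (50.6%), and 32 of these were lower in knockout. The share that passed was 39.6% in the large and 69.0% in the small subunit. In the large subunit 18 of the 48 that were tested fell, 1 rose and 29 missed the threshold (edgeR quasi-likelihood test, Benjamini-Hochberg adjusted p under 0.05). In the small subunit 14 of 29 fell, 6 rose and 9 missed it. Over all 14877 tested genes, 64% passed the test, 32.1% lower and 31.9% higher. The large subunit's lower share, 37.5%, was thus near that of all genes, whereas its higher share was 2.08%. In the small subunit 48.3% were lower and 20.7% higher. With both number 1 libraries left out, 22 large subunit members fell and 6 rose, and in the small subunit 17 fell and 7 rose. Same-numbered libraries of the groups were correlated in their deviations, but only number 1 stood out from differently numbered pairs. With the replicate number as a block 5 large subunit members rose and 27 fell, and in the small subunit 7 rose and 18 fell. Under upper-quartile scaling the split was 26 lower and 0 higher in the large subunit, and 17 lower and 4 higher in the small subunit.

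The sizes were modest. The median log2 fold change, knockout over wild type, was -0.17 in the large subunit (quartiles -0.34 and -0.00) and -0.24 in the small subunit (quartiles -0.52 and 0.20). Over all tested genes the median was -0.01, with quartiles of -0.48 and 0.47. The median absolute log2 change was 0.20 in the large and 0.40 in the small subunit, against 0.47 over all tested genes. Mrps6, Mrpl36 and Mrpl14 changed at least 2-fold and passed the test, 3.90% of the tested members, where 21.7% of all tested genes did. In a test against a 1.5-fold change, which 13.5% of all genes passed upward and 13.2% downward, Mrpl14, Mrpl18 and Mrpl36 passed downward in the large subunit, Mrps6 and Mrps25 passed downward in the small subunit, and Mrps30 alone passed upward. CPM ranges of the groups did not overlap for 26 large and 23 small subunit members, 54.2% and 79.3% of those tested, against 68.3% of all tested genes.

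**Figure D1:**
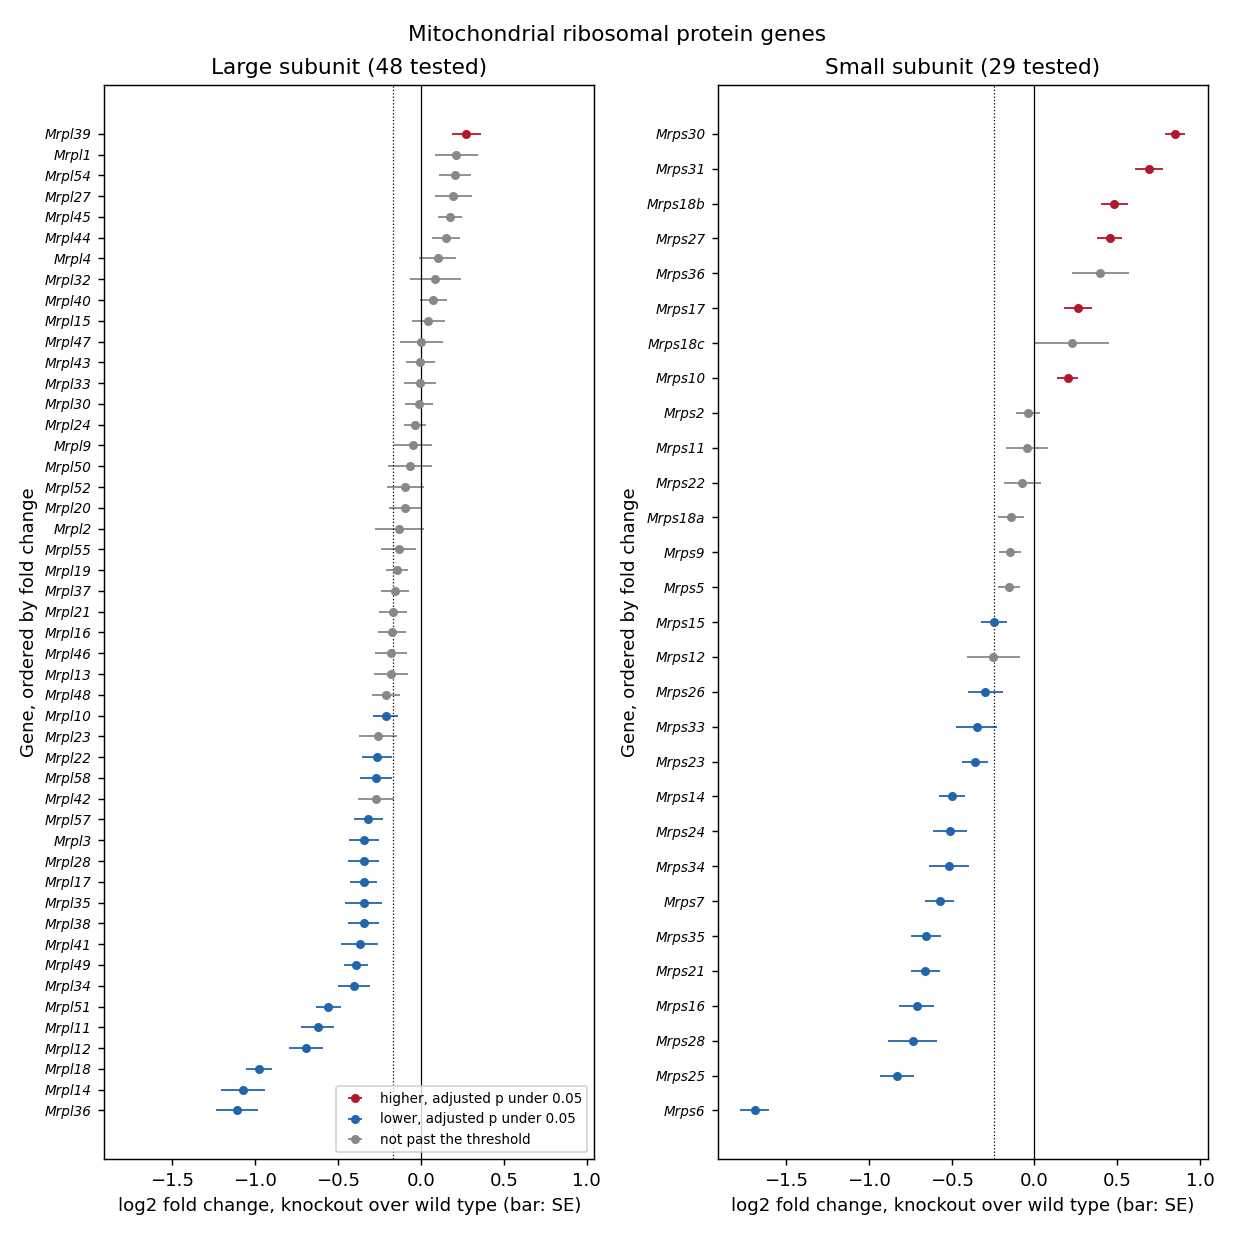
Log2 fold change of each of the 77 tested members, knockout over wild type, with its standard error, for the large and the small subunit, coloured by the test result, with a dotted line at the median. The small subunit spans -1.69 (Mrps6) to 0.85 (Mrps30), and the large subunit -1.11 (Mrpl36) to 0.27 (Mrpl39).

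The summed level of each subunit was lower in every knockout library. Large subunit members summed to 1553, 1430 and 1543 CPM in wild type and 1307, 1353 and 1341 CPM in knockout, means of 1509 ± 68.5 and 1334 ± 23.8 (SD, n = 3), an 11.6% lower mean. Small subunit members summed to 920, 873 and 928 CPM in wild type and 753, 777 and 783 CPM in knockout, means of 907 ± 29.5 and 771 ± 15.7 (SD, n = 3), a 15.0% lower mean. No wild-type and knockout values overlapped in either subunit. A single gene carried much of the small subunit's difference: without Mrps6 the sums were 762, 735 and 774 CPM in wild type and 711, 730 and 732 CPM in knockout, a mean 4.30% lower. These sums were given no test.

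**Figure D2:**
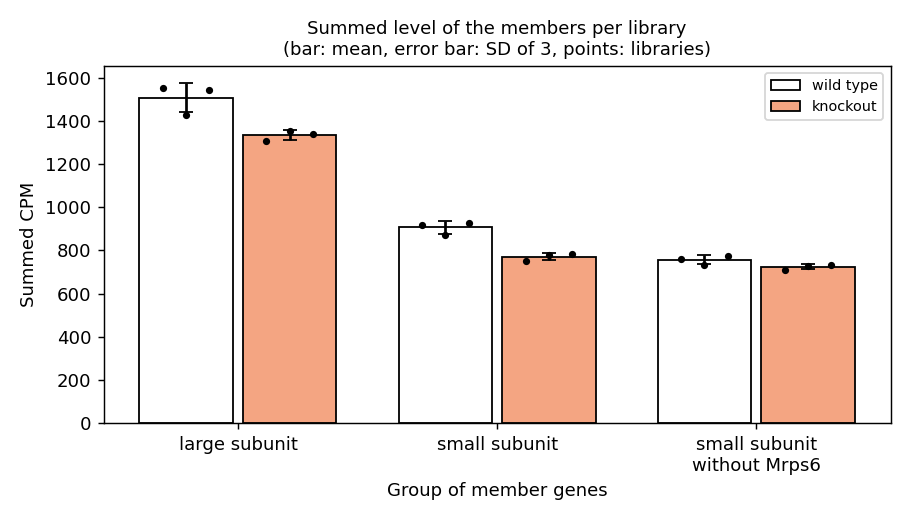
Summed CPM of the large subunit, the small subunit and the small subunit without Mrps6 in each library, with points for libraries, bars for group means and error bars for the SD (n = 3). The knockout libraries lie below the wild-type libraries in all 3 gene groups, and the gap narrows from 15.0% to 4.30% of the wild-type mean once Mrps6 is left out.

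In the large subunit the largest falls were in Mrpl36, Mrpl14 and Mrpl18. Mrpl36 encodes the homolog of bacterial ribosomal protein bL36, a very small zinc-binding protein, and lies at chr13:73328513-73332178 on the plus strand. It read 8.30, 6.58 and 7.40 CPM in wild type and 3.47, 3.71 and 3.14 CPM in knockout. The groups did not overlap, and it fell by 1.11 on the log2 scale (SE 0.13, edgeR adjusted p = 6.39e-05), a 2.16-fold lower level. Mrpl14, the homolog of uL14 at the face that meets the small subunit, lies at chr17:45686322-45698495 on the plus strand. Its level was 16.8, 17.0 and 19.4 CPM in wild type and 6.81, 9.49 and 9.02 CPM in knockout. Every knockout value was well under every wild-type value, and it fell by 1.07 on the log2 scale (SE 0.13, edgeR adjusted p = 0.000112). Mrpl18, a protein of the central protuberance and the homolog of the bacterial protein that binds 5S rRNA, lies at chr17:12911349-12916345 on the minus strand. It gave 38.9, 35.9 and 35.3 CPM in wild type and 17.9, 18.6 and 19.6 CPM in knockout, so that the libraries of each group were close together. It fell by 0.97 on the log2 scale (SE 0.08, edgeR adjusted p = 7.46e-06), a 1.96-fold lower level.

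The stalk base and stalk, where translation factors dock, held 5 listed members, of which 4 were tested. Of these, 3 fell (75%, against 32.1% of all tested genes), with a median of -0.42 over the 4. Mrpl54 went from 20.7 ± 1.43 to 23.9 ± 2.40 CPM (SD, n = 3), a difference of 0.21 that did not pass the test (edgeR adjusted p = 0.0946). It passed as higher with the replicate block (edgeR adjusted p = 0.0207), without both number 1 libraries and without knockout 1. Mrpl12, the stalk protein itself, read 64.1, 65.6 and 71.6 CPM in wild type and 35.5, 45.6 and 43.6 CPM in knockout. Knockout 1 was the lowest of its group, and the groups did not overlap. Mrpl12 fell by 0.69 on the log2 scale (SE 0.10, edgeR adjusted p = 0.000321), a 1.61-fold lower level, and 13.1% of its exon bases lie opposite another gene. Mrpl11, which binds the rRNA beneath the stalk, went from 21.4 ± 1.37 to 13.9 ± 1.27 CPM (SD, n = 3). It fell by 0.62 on the log2 scale (SE 0.10, edgeR adjusted p = 0.00049). Mrpl10, the stalk's anchor, read 50.3, 52.3 and 54.8 CPM in wild type and 42.8, 44.9 and 48.2 CPM in knockout, and fell by 0.21 on the log2 scale (SE 0.07, edgeR adjusted p = 0.033). This call was lost without wild type 2, wild type 3, knockout 1 or knockout 2, and without the filter on low counts (edgeR adjusted p = 0.0801). Mrpl53, the fifth of these, had 0 counts in all 6 libraries, where 3 counts would be 0.0588 to 0.0766 CPM. As 88.0% of its exon bases are shared, on the same strand, with the gene model Gm42688, which summed to 96 wild-type and 77 knockout counts, its level was not measurable from this table.

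Of 8 members in the central protuberance 3 fell (37.5%), with a median of -0.19. Around the polypeptide exit 2 of 6 members fell (33.3%), with a median of -0.15. Over all tested genes 32.1% were lower, near both shares, and 31.9% higher. In both groups none rose, but 1 polypeptide exit member passed as higher under RLE factors, under DESeq2, with the replicate block, without both number 1 libraries and without wild type 1, and 1 central protuberance member did without both number 1 libraries. Mrpl58, a peptidyl-tRNA hydrolase built into the central protuberance that can free stalled peptides, read 20.7, 17.7 and 21.8 CPM in wild type and 16.6, 16.8 and 16.5 CPM in knockout. It fell by 0.27 on the log2 scale (SE 0.10, edgeR adjusted p = 0.0329), a call lost in 5 of the 6 fits that left out 1 library. Mrpl41 went from 11.9, 9.87 and 11.1 CPM to 9.05, 8.71 and 7.66 CPM, and fell by 0.37 on the log2 scale (SE 0.11, edgeR adjusted p = 0.0156, and 0.0690 without knockout 3). Of 30 members with a bacterial homolog 12 fell (40%), and of 18 found only in mitochondria 6 fell (33.3%), with a median of -0.17 in each. The lower share over all tested genes was 32.1%. With the replicate block 5 central protuberance members fell, and of the members found only in mitochondria 10 fell and 4 rose. Without both number 1 libraries the latter counts were 8 and 4.

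The 1 large subunit member that rose was Mrpl39, a mitochondria-specific protein, at chr16:84717576-84735742 on the minus strand. It read 42.7, 37.7 and 37.2 CPM in wild type and 51.8, 44.5 and 46.0 CPM in knockout. The lowest knockout value lay just above the highest wild-type value. It rose by 0.27 on the log2 scale (SE 0.09, edgeR adjusted p = 0.023), and the call was lost under upper-quartile scaling (edgeR adjusted p = 0.0641), without wild type 2 (0.0830) and without wild type 3 (0.0976). Mrpl43, Mrpl47 and Mrpl33 had the smallest changes, with log2 values of -0.00, 0.00 and -0.00 and standard errors of 0.09, 0.13 and 0.10. Mrpl2, a protein near the peptidyl transferase centre, read 36.7, 37.3 and 43.3 CPM in wild type and 27.1, 40.6 and 39.5 CPM in knockout. Knockout 1 stood below the other 5 libraries, and the difference of -0.13 did not pass the test (edgeR adjusted p = 0.47).

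**Figure D3:**
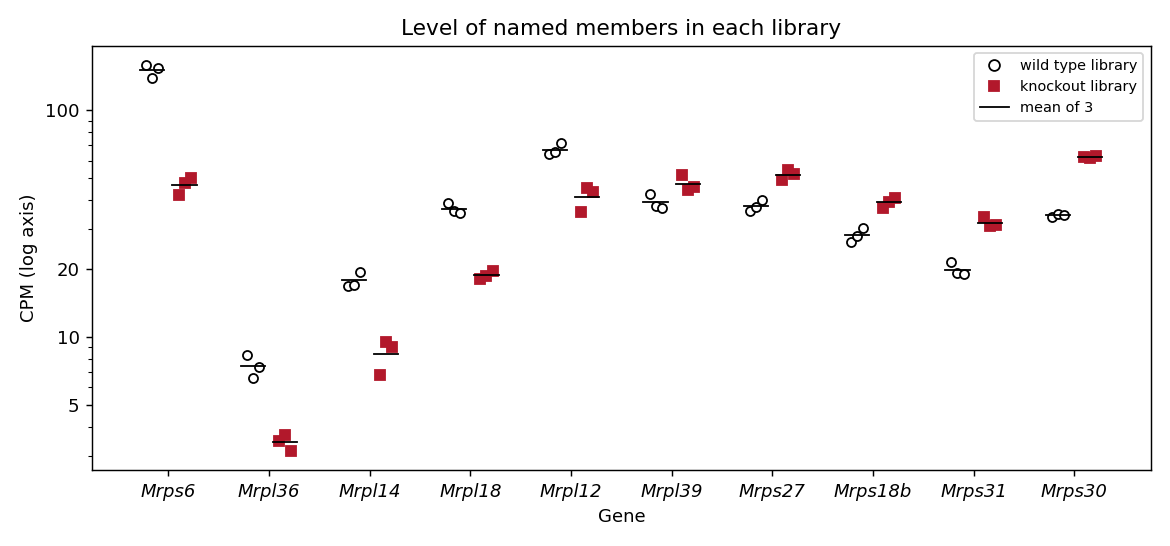
CPM in each of the 6 libraries on a log axis for named members of both subunits, with circles for wild type, squares for knockout and lines for means. Mrps6 falls from 150 to 46.6 CPM and Mrps30 rises from 34.4 to 62.0 CPM, with no overlap of the groups in either gene.

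The small subunit held the widest spread of changes, and Mrps6 stood at its lower end. Mrps6 encodes the homolog of bacterial bS6, a protein of the platform, and lies at chr16:92058270-92112227 on the plus strand. Its level was 158, 138 and 154 CPM in wild type and 42.2, 47.6 and 50.0 CPM in knockout. Every knockout library was far below every wild-type library, with means of 150 ± 10.3 and 46.6 ± 4.01 CPM (SD, n = 3). Mrps6 fell by 1.69 on the log2 scale (SE 0.09, edgeR adjusted p = 4.98e-07), a 3.22-fold lower level. Slc5a3, the sodium-coupled myo-inositol transporter, lies inside the Mrps6 locus on the same strand, at chr16:92058322-92087473, and with the gene model Gm49711 it shares 19.9% of the Mrps6 exon bases. Slc5a3 read 634, 614 and 592 CPM in wild type and 162, 144 and 141 CPM in knockout, and fell by 2.04 on the log2 scale (SE 0.08, edgeR adjusted p = 7.28e-08), a 4.11-fold lower level. Both genes of the locus thus fell, and how far reads of one were counted for the other was not tested.

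After Mrps6 the lowest fold changes were those of Mrps25, Mrps28, Mrps16 and Mrps21. Mrps25, a mitochondria-specific protein, lies at chr6:92169525-92184033 on the minus strand, and read 24.6, 22.6 and 26.1 CPM in wild type and 12.2, 14.8 and 14.3 CPM in knockout. The groups were clear of each other, and it fell by 0.83 on the log2 scale (SE 0.10, edgeR adjusted p = 0.000106). Of its exon bases 69.8% lie opposite Nr2c2, a nuclear receptor gene at 65.4 CPM in wild type and 69.6 in knockout that did not pass the test (edgeR adjusted p = 0.287), and reads of the 2 genes cannot be told apart without a strand setting. Mrps28, a homolog of bacterial bS1, read 10.2, 9.64 and 12.4 CPM in wild type and 5.31, 6.66 and 7.38 CPM in knockout, and fell by 0.74 on the log2 scale (SE 0.15, edgeR adjusted p = 0.00199). Mrps16, whose loss in people causes a mitochondrial disease, went from 20.6 ± 1.89 to 12.6 ± 1.10 CPM (SD, n = 3), and fell by 0.71 on the log2 scale (SE 0.10, edgeR adjusted p = 0.000323). Mrps21, the homolog of bS21, went from 17.3 ± 1.18 to 10.9 ± 0.43 CPM (SD, n = 3), and fell by 0.66 on the log2 scale (SE 0.09, edgeR adjusted p = 0.00021). None of these genes showed an overlap between the groups.

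At the upper end stood Mrps30, Mrps31, Mrps18b and Mrps27, the 4 small subunit members that kept their higher call in every alternative fit that gave a test against no change. Mrps30 lies at chr13:118378381-118387252 on the minus strand, and despite its symbol its protein was placed in the large subunit by mitoribosome structures. It read 33.9, 34.8 and 34.6 CPM in wild type and 62.1, 61.3 and 62.5 CPM in knockout, with very little spread within either group. It rose by 0.85 on the log2 scale (SE 0.06, edgeR adjusted p = 4.53e-06), a 1.80-fold higher level. Mrps31, a mitochondria-specific protein, lies at chr8:22411361-22429665 on the plus strand. It read 21.4, 19.2 and 18.9 CPM in wild type and 33.9, 30.8 and 31.3 CPM in knockout. Every knockout library exceeded every wild-type library, and it rose by 0.69 on the log2 scale (SE 0.08, edgeR adjusted p = 0.000101). Mrps27, a pentatricopeptide repeat protein that binds RNA, lies at chr13:99344786-99415562 on the plus strand. It read 36.0, 37.6 and 40.2 CPM in wild type and 49.1, 54.5 and 52.2 CPM in knockout, without overlap. It rose by 0.45 on the log2 scale (SE 0.08, edgeR adjusted p = 0.000723), and 24.2% of its exon bases lie opposite 6430562O15Rik, which was at 0.906 and 1.11 CPM. Mrps17, the homolog of uS17, rose by 0.26 (SE 0.09, edgeR adjusted p = 0.0257), from 30.0, 25.0 and 27.9 CPM to 34.3, 31.7 and 33.4 CPM. Its call was lost under upper-quartile scaling (edgeR adjusted p = 0.0741) and without wild type 2, wild type 3 or knockout 3.

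Mice have 3 homologs of the bacterial protein bS18, and of their genes Mrps18b alone passed the test. The protein of Mrps18b is a small subunit component, that of Mrps18c takes the bacterial position in the small subunit, and that of Mrps18a is in the large subunit. Mrps18b, at chr17:35910379-35916389 on the minus strand, read 26.3, 27.7 and 30.3 CPM in wild type and 37.1, 39.4 and 41.2 CPM in knockout. The groups did not overlap, and it rose by 0.48 on the log2 scale (SE 0.08, edgeR adjusted p = 0.000819), with 30.5% of its exon bases opposite Gm16279, which was at 0.712 and 0.244 CPM. Mrps18a read 27.7, 27.4 and 29.1 CPM in wild type and 24.2, 25.0 and 27.2 CPM in knockout, a difference of -0.14 (SE 0.08, edgeR adjusted p = 0.148) that passed with the replicate number as a block (edgeR adjusted p = 0.0197) and under upper-quartile scaling (0.0478). Mrps18c read 8.50, 4.67 and 6.85 CPM in wild type and 9.86, 7.20 and 6.34 CPM in knockout, overlapping groups with a difference of 0.22 (SE 0.23, edgeR adjusted p = 0.413). Whether the 3 differences differ from each other was not tested.

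Mrps36 is now assigned to the 2-oxoglutarate dehydrogenase complex rather than to the ribosome. It read 12.7, 9.25 and 8.54 CPM in wild type and 15.8, 11.5 and 13.0 CPM in knockout, and wild type 1 lay above knockout 2. The difference of 0.40 (SE 0.17) did not pass the test (edgeR adjusted p = 0.0674), but it passed with the replicate block (0.000202) and without both number 1 libraries (9e-05). Mrps2, Mrps11 and Mrps22 had the smallest differences of the small subunit, -0.04, -0.05 and -0.07 on the log2 scale, and did not pass the test. With Mrps30 and Mrps18a counted in the large subunit and Mrps36 left out, 18 of 50 large subunit members fell and 2 rose, and 14 of 26 small subunit members fell and 5 rose. In that assignment the medians were -0.16 and -0.27, and the summed level was 9.56% lower in the large subunit and 19.7% lower in the small subunit. Of 16 small subunit members with a bacterial homolog 8 fell (50%) and 2 rose (12.5%). Of 10 listed as specific to mitochondria 6 fell (60%) and 3 rose (30%). Mrps18b, which rose, was counted in this second list although it is a bS18 homolog. Over all tested genes 32.1% fell and 31.9% rose.

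Levels of different members can be compared only per length, here as CPM per kilobase of all annotated exons of a gene joined. This length, 1533 bases for Mrps6 and 8631 for Mrps35, can exceed that of the transcripts made, so the ranking depends on the annotation. On that scale Mrps6 was the highest in wild type of the small subunit, at 97.9 CPM per kilobase against 30.4 in knockout. Mrps7, a homolog of uS7 at the head of the small subunit, followed at 27.8 and 18.7 CPM per kilobase, and fell by 0.57 on the log2 scale (edgeR adjusted p = 0.000396). In the large subunit the highest levels, by the sum of the group means, were those of Mrpl12 with 43.8 and 27.1 CPM per kilobase, Mrpl2 with 33.4 and 30.6 and Mrpl10 with 30.7 and 26.5. Mrpl12 was the highest of that subunit in wild type and Mrpl2 in knockout. By these counts Mrps6 was the most abundant member per length in wild type, while in knockout its level was close to that of Mrpl2. Of the Mrps6 exon bases 19.9% are shared with Slc5a3 and Gm49711, and the part of their reads in its level was not tested.

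Of the 5 listed mitoribosomal proteins with symbols outside the rule, 3 fell (60%) and none rose. Over all tested genes 32.1% fell and 31.9% rose. Ptcd3, a small subunit protein with pentatricopeptide repeats, read 126, 106 and 107 CPM in wild type and 100, 76.9 and 79.5 CPM in knockout, and fell by 0.40 on the log2 scale (edgeR adjusted p = 0.0131). This call was lost without knockout 2 (edgeR adjusted p = 0.0527) or knockout 3 (0.0558). Gadd45gip1, a large subunit protein, went from 45.9 ± 2.07 to 35.2 ± 4.46 CPM (SD, n = 3) and fell by 0.38 on the log2 scale (edgeR adjusted p = 0.00827). Chchd1, a small subunit protein, went from 15.0 ± 2.87 to 10.7 ± 0.904 CPM (SD, n = 3) and fell by 0.49 on the log2 scale (edgeR adjusted p = 0.014, and 0.0567 without knockout 3). Dap3, a GTP-binding protein of the small subunit, and Aurkaip1 showed differences of -0.12 and -0.19 that did not pass the test (edgeR adjusted p = 0.162 and 0.0595), and with the replicate block both passed (0.029 and 0.00381).

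Among genes that assemble and serve the mitoribosome, calls went in both directions, as they did over all tested genes (31.9% higher and 32.1% lower). Of 25 assembly factors 6 rose (24%) and 7 fell (28%), both under those shares, with a median of -0.05. With the replicate block 7 rose and 11 fell. Mterf3, a mitochondrial transcription termination family member needed for large subunit assembly, read 17.4, 14.3 and 14.0 CPM in wild type and 39.5, 31.0 and 31.3 CPM in knockout. It rose by 1.15 on the log2 scale (SE 0.13, edgeR adjusted p = 4.97e-05). Noa1, a GTPase of small subunit assembly, read 31.0, 35.0 and 34.9 CPM in wild type and 14.6, 15.6 and 15.7 CPM in knockout, and fell by 1.14 on the log2 scale (SE 0.08, edgeR adjusted p = 4.43e-06). Neither gene's groups overlapped, and the absolute change of each exceeded that of every member other than Mrps6. Nsun4, which methylates the 12S rRNA, rose by 0.58, and Trub2, a pseudouridine synthase, rose by 0.40 (edgeR adjusted p = 0.000412 and 0.00107). Mrm2, a 16S rRNA methyltransferase, fell by 0.73, and the RNA helicase Dhx30 fell by 0.57 on the log2 scale (edgeR adjusted p = 0.00116 and 0.000937).

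Of 17 translation factors 3 rose (17.6%) and 4 fell (23.5%), against 31.9% and 32.1% of all tested genes, with a median of -0.09. With the replicate block 6 rose and 6 fell. Gfm1, the elongation factor that moves the ribosome along the mRNA, read 108, 98.1 and 99.9 CPM in wild type and 48.3, 43.9 and 43.1 CPM in knockout. It fell by 1.18 on the log2 scale (SE 0.08, edgeR adjusted p = 1.83e-06). Tufm, which brings aminoacyl-tRNAs to the ribosome, read 73.7, 87.2 and 85.6 CPM in wild type and 36.3, 47.8 and 48.3 CPM in knockout, and fell by 0.90 on the log2 scale (SE 0.12, edgeR adjusted p = 0.000182). Gfm1 and Tufm were both lower in every knockout library. Taco1, a translational activator, fell by 0.69, whereas the release factor Mtrf1l rose by 0.65 and the initiation factor Mtif3 rose by 0.31 (edgeR adjusted p = 0.000198, 0.000504 and 0.00706). Gfm2, which acts in ribosome recycling, rose by 0.19 (edgeR adjusted p = 0.0374), a call lost in 6 alternative fits. Of 20 genes of the aminoacyl-tRNA synthetase list, which charge mitochondrial tRNAs, 9 fell (45%) and 1 rose (5%), with a median of -0.22. With the block 14 fell and 3 rose. Cars2, for cysteine, fell by 1.26 and Iars2, for isoleucine, by 0.82 on the log2 scale (edgeR adjusted p = 2.08e-05 and 4.87e-06). Qrsl1, an amidotransferase subunit and the gene that rose, changed by 0.27 (edgeR adjusted p = 0.0342), a call lost in 8 alternative fits. Without both number 1 libraries 12 genes of this list fell and 3 rose.

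The rRNAs of the particle and the mRNAs it translates are transcribed from mitochondrial DNA. The 12S rRNA of the small subunit, mt-Rnr1, read 899, 647 and 640 CPM in wild type and 1528, 964 and 1060 CPM in knockout. In both groups library 1 was the highest, and mt-Rnr1 rose by 0.70 on the log2 scale (SE 0.19, edgeR adjusted p = 0.00956). The 16S rRNA of the large subunit, mt-Rnr2, read 2102, 1539 and 1494 CPM in wild type and 3212, 1939 and 2143 CPM in knockout, and the groups overlapped. It rose by 0.51 (SE 0.20, edgeR adjusted p = 0.0477), a call lost without wild type 2 (0.144), wild type 3 (0.142) or knockout 1 (0.109) and under upper-quartile scaling (0.0759). These RNAs carry only short tails, so how much of them poly(A) selection keeps can vary between libraries, and this was not tested. Among 15 mitochondrially encoded genes 11 were tested, of which 3 rose and 3 fell, with a median of -0.18. These are 27.3% each, against 31.9% higher and 32.1% lower over all tested genes. Without the filter on low counts all 15 were tested, 3 rose and 5 fell, and the median was 0.11. Those that fell were mt-Nd6, mt-Nd2 and mt-Cytb, by 0.52, 0.48 and 0.50 on the log2 scale (edgeR adjusted p = 0.00436, 0.0247 and 0.0248), and the calls of mt-Nd2 and mt-Cytb were lost without wild type 1, knockout 2 or knockout 3. The other gene that rose, mt-Co2, did so through knockout 1 alone, at 7.37 CPM against 0.366 and 0.307 in the other knockout libraries. Wild-type means of the tested genes on this list ran from 0.205 to 7683 CPM. How fully reads of mitochondrial DNA were counted was not tested. Without both number 1 libraries 3 of these genes rose and 6 fell, with only knockout 1 left out 1 rose and 6 fell, and with the replicate block 4 rose and 6 fell.

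Of 23 genes for mitochondrial transcription, mtDNA upkeep and RNA processing 9 rose (39.1%) and 7 fell (30.4%), with a median of 0.19. Over all tested genes 31.9% rose and 32.1% fell. Tfam, which packages and transcribes mitochondrial DNA, rose by 0.41, and the matrix protease Lonp1 by 0.54 (edgeR adjusted p = 0.00531 and 0.00222). Ssbp1, the mitochondrial single-strand binding protein, fell by 0.66 and Polg2, the accessory subunit of the mitochondrial DNA polymerase, by 0.72 on the log2 scale (edgeR adjusted p = 0.000273 and 0.000904). Of 11 regulators of mitochondrial biogenesis 10 were tested, of which 5 rose (50%) and 2 fell (20%), with a median of 0.23. Both GABP subunit genes on this list rose: Gabpa from 81.7 ± 9.41 to 123 ± 18.7 CPM and Gabpb1 from 32.8 ± 3.08 to 59.9 ± 5.27 CPM (SD, n = 3), by 0.59 and 0.87 on the log2 scale (edgeR adjusted p = 0.00225 and 5.22e-05). Yy1 rose by 0.25 (edgeR adjusted p = 0.00609). The coactivator genes Pprc1 and Ppargc1b both fell by 0.57 on the log2 scale (edgeR adjusted p = 0.000277 and 0.00692).

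An excess of lower over higher calls was also seen in the 2 most similar gene groups. Of 78 tested cytosolic ribosomal protein genes 40 fell and 2 rose, with a median of -0.25. Of 37 complex I subunit genes, which encode the largest enzyme the mitoribosome serves, 28 fell and 1 rose, with a median of -0.44. The lower shares were 51.3% and 75.7%, against 41.6% for the 77 tested mitoribosomal genes together and 32.1% for all tested genes. These shares were not tested against each other.

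The exact motif letters were more frequent in the members' promoters than in promoters at large, a description with no test. RefSeq windows were found for 69 of the 78 members, 75 windows in all, since a gene can have several. Of these windows 48% held at least 1 of the 3 motifs, 34.7% the ETS motif, 10.7% the YY1 motif and 9.33% the NRF1 motif. Over the 13679 windows of tested genes the shares were 21.4%, 16.6%, 2.79% and 3.41%, and over all 32851 windows of the same length 11.4%, 8.86%, 1.40% and 1.75%. The ETS and YY1 letters can overlap where CCGGAAG runs into AAGATGGCG, and 5 members' windows held 2 or more kinds. Large and small subunit windows held any motif at 47.9% and 48.1%, cytosolic ribosomal protein windows at 46.6% and complex I windows at 31.4%. Among the members, 17 of 29 windows of genes that fell, 3 of 7 of genes that rose and 15 of 38 of genes that did not pass the test held a motif. A match is a run of letters, not a bound site.

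**Figure D4:**
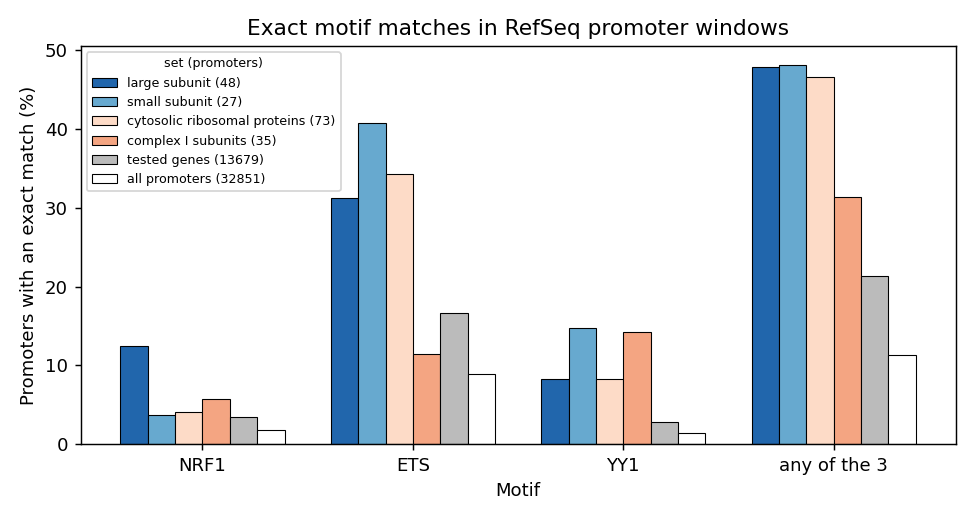
Percentage of RefSeq promoter windows with an exact match to the NRF1, ETS or YY1 motif, or any of the 3, for the 2 subunits, cytosolic ribosomal proteins, complex I, tested genes and all promoters. Any motif was found in 47.9% of large and 48.1% of small subunit windows against 21.4% of the windows of tested genes.

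Several members start back to back with a gene on the opposite strand. Only neighbours starting within 1000 bases upstream were counted, so pairs that overlap at their starts, such as Mrps11 and Mrpl46, were left out. A head-to-head neighbour of this kind was annotated for 20 of the 77 tested members (26.0%). The share was 15.6% of 14769 tested genes with a gene model. Over all tested genes 31.9% rose and 32.1% fell, and how often such pairs agree in direction over all genes was not counted. In 1 of the 20 pairs both genes rose, Mrps27 and Ptcd2, another pentatricopeptide repeat gene, 81 bases apart. Ptcd2 went from 18.5 ± 1.36 to 28.1 ± 2.85 CPM (SD, n = 3) and rose by 0.60 (edgeR adjusted p = 0.000647). In 2 pairs both fell. Mrpl51 fell by 0.56, from 35.1 to 23.8 CPM, beside Ncapd2, a condensin subunit gene, which went from 231 to 62.8 CPM and fell by 1.88 on the log2 scale (edgeR adjusted p = 0.000227 and 1.18e-07). Mrpl57 fell by 0.32 beside the spindle gene Ska3, which fell by 1.04 on the log2 scale (edgeR adjusted p = 0.0105 and 1.48e-05). In 1 pair the genes moved apart: Mrps34 fell by 0.52 and Eme2, 29 bases away, rose by 0.52 (edgeR adjusted p = 0.00468 and 0.000949). Of the Mrps34 exon bases 63.4% lie opposite Mapk8ip3, which rose by 0.38 (edgeR adjusted p = 0.00454) and also shares exon bases with Eme2. A further overlap, of 37% on the same strand, is with Nme3, which had 0 counts in both groups. How far reads of one gene at this locus were counted for another or left out was not tested. Ppp1r10, 45 bases from Mrps18b, was at 92.4 and 89.9 CPM and did not pass the test (edgeR adjusted p = 0.662). In the other pairs no more than 1 gene passed.

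The members' changes were set beside those of their chromosomes, an alternative chosen after the values were seen. Over 601 tested genes of chromosome 13 the median log2 fold change was 0.35, with 50.9% higher and 17.8% lower, and Mrps30 and Mrps27 lie there, as does Mrpl36, which fell. Over 716 tested genes of chromosome 6 the median was -0.22, with 43.3% lower, and 5 of its 6 tested members fell. On the 3 chromosomes with a median of at least 0.1 (10, 13 and 16) 3 of 10 members rose and 2 fell. On the 4 chromosomes with a median of -0.1 or less (6, 8, 15 and 19) 1 of 14 rose and 8 fell. On the remaining chromosomes 3 of 53 rose and 22 fell. Relative to the median of its own chromosome, the median member was at -0.12 in the large subunit, with 32 of 48 below, and at -0.14 in the small subunit, with 21 of 29 below. The part of chromosome-wide differences in the members' changes was not tested.

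**Figure D5:**
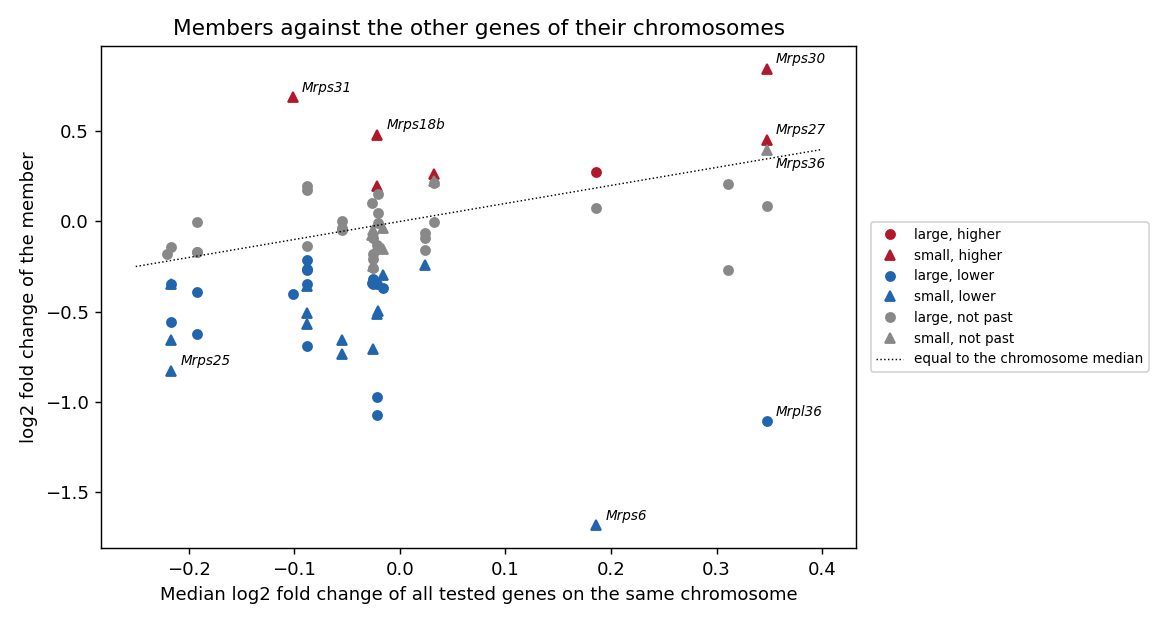
Log2 fold change of each tested member against the median log2 fold change of all tested genes on its chromosome, with circles for the large and triangles for the small subunit and a dotted line where both are equal. Mrps30 and Mrps27 lie on the chromosome with the highest median, 0.35, as does Mrpl36 at -1.11.

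Reads that could belong to more than 1 gene touch a minority of members. Of the 78 members 33 share an exon base with another gene model on either strand, and 10 share at least 20%. Without those 10, 18 of 44 large subunit members fell and 1 rose, with a median of -0.18. In the small subunit 12 of 24 fell and 4 rose, with a median of -0.25. Mrps6, which shares 19.9%, was just under the limit and stayed among the 24. The 5 left-out pseudogene symbols had 0 to 6 counts per group.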

How the data were processed

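The samples were 6 poly(A) RNA-seq libraries, 3 per labelled group, with groups and replicate numbers from the sample titles. The authors deposited 1 table of raw read counts per gene symbol, per the file headers, and 0 columns of other samples were present. Per the submitters' processing notes, which give no roles, the builds were mm10 and GRCm38 and the tools were STAR 2.7.1a, fastp 0.20.0, edgeR 3.34.0, limma 3.48.3 and HTSeq 0.11.2. For the strand setting and annotation release, not given in the sources used here, no assumption was made, so reads of overlapping genes cannot be told apart.

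The deposited counts were tested with edgeR 4.0.16 in R 4.3.3 (filterByExpr, TMM factors, quasi-likelihood F-test, two-sided, Benjamini-Hochberg over all 14877 genes tested, threshold 0.05). CPM values use TMM-scaled totals, and their number of counts limits precision only at low levels. Scripts were tested on simulated data. Alternatives were RLE and upper-quartile factors, no filter, DESeq2 1.42.0, a test against a 1.5-fold change, a replicate block and leaving libraries out. Coordinates, exon lengths and neighbours are from GENCODE M21 (GRCm38), where 54471 symbols matched 1 gene model, and promoters are from RefSeq.

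Deviations from the group means were compared between same-numbered libraries, whose numbers come from the titles. They correlated at 0.443, 0.161 and 0.150 across genes, each over the limit of 0.1. The replicate number was used as a block in an alternative fit, and the main fit left it out. Differently numbered pairs ran from -0.299 to 0.189, and for numbers 2 and 3 these correlations do not single out the same-numbered pairs.

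Named genes were, in each subunit, the 5 highest and 5 lowest fold changes among members past the threshold without overlap, the 3 highest levels per length (sum of the group means) and the 3 smallest changes; members below the filter; Mrps18a, Mrps18b, Mrps18c, Mrps30, Mrps36, Mrpl12, Mrpl41 and Mrpl58; the 5 proteins outside the symbol rule; up to 3 genes per direction from each pathway list; head-to-head partners of named members; and Ppp2ca. Mrpl54, Mrpl51, Mrpl57, Mrps34 and the partners of the last 3 were named after their values were seen. The members and lists were chosen with earlier results of these data known. One gene that the rule names is not reported here.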

Additional observations from a re-analysis of the deposited data

How the results depend on the processing

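The count of large subunit members that rose, 1, was 2 under RLE factors, DESeq2 and the assignment by structure, 0 under upper-quartile factors and in the test against a 1.5-fold change, 5 with the replicate block, 6 without both number 1 libraries, and 0 to 3 with 1 library left out. The count that fell was 3 in the 1.5-fold test and 14 to 19 with 1 library left out. In the small subunit the 1.5-fold test left 1 higher and 2 lower members. Under upper-quartile factors, which put 44.8% of all calls higher against 49.9%, the medians were -0.23 (large) and -0.31 (small). The small subunit median was -0.19 without both number 1 libraries, -0.14 relative to chromosome medians and -0.25 to -0.17 with 1 library left out, and the summed small subunit change was -4.30% without Mrps6.

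Members with changes near 0 turned sign and stayed without a call: Mrpl43 read 0.0087 under RLE factors and under DESeq2, 0.0041 without the filter and 0.064 without both number 1 libraries. Mrpl33 read 0.0063, 0.0062, 0.0013 and 0.059 in the same order. Mrpl47 read -0.061 under upper-quartile factors. Without both number 1 libraries Mrpl2 read 0.00067 and Mrps11 0.061. With 1 library left out the ranges were -0.22 to 0.049 for Mrpl2, -0.048 to 0.085 for Mrpl43, -0.088 to 0.15 for Mrpl47, -0.058 to 0.063 for Mrpl33, -0.074 to 0.0095 for Mrps2, -0.11 to 0.098 for Mrps11 and -0.17 to 0.016 for Mrps22. The cause was not tested. Of the calls, 12 of 18 lower in the large subunit, 11 of 14 lower in the small subunit, 4 of 6 higher in the small subunit and 0 of 1 higher in the large subunit held in every alternative fit run other than the 1.5-fold test. The replicate block changed no call of a named member other than those given above for Mrps18a, Mrps36 and Mrpl54. Counting depth limits the least expressed members most, such as Mrpl36 and Mrps18c.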
